A study of Mus musculus with 4 samples.

Results

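C1q-high tumour macrophages were examined as the myeloid cells of B16 melanomas with many transcripts of the complement component C1q. Members were chosen by measured transcripts: a cell counted when it held at least 5 unique molecular identifiers (UMIs, each marking 1 captured RNA molecule) of Lyz2 and at least 10 of C1qa, C1qb and C1qc together, and stayed under limits on genes of other cell types. Those limits were Ccl8 plus Cbr2 under 5 UMIs, no cell with at least 2 UMIs of both Ear2 and Mgl2, at most 1 UMI each of Cd209a, Xcr1 plus Clec9a, Cd3d plus Cd3e plus Cd3g, and Cd79a, and S100a8 plus S100a9 under 1% of the UMIs of the cell. Of 7581 cells with at least 1000 UMIs, at least 500 genes and at most 10% mitochondrial UMIs, 1177 were members. There were 625 members among 4370 cells of the library labelled wild-type and 552 among 3211 cells of the library labelled knock-out.

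Tumours grew from B16 melanoma cells in the right flank of male C57BL/6 mice that were either wild-type or labelled ATPIF1 knock-out, and were taken on day 12. ATPIF1 binds and inhibits the F1Fo ATP synthase of mitochondria. The suspensions from mice sharing a genotype were mixed, CD45-positive leukocytes were sorted, and 1 RNA library and 1 T cell receptor library of the 10x Genomics 5′ chemistry were made per genotype. The design text gives n=6 without saying whether that is per genotype, and the labels do not describe the knock-out allele, the cells that lack the gene or the age of the mice. With 1 pooled library per genotype there was no replicate, so no difference between the libraries could be tested. All intervals given here are exact 95% intervals that cover counting error only, not the spread between mice, and no difference between the libraries can be ascribed to the genotype from them.

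C1q is the recognition molecule of the classical complement pathway. Its 3 chains, encoded by C1qa, C1qb and C1qc, are made mainly by tissue macrophages and not by the liver. In tumours, C1q transcripts are used to tell apart macrophages that also carry lipid-handling and scavenger genes (Apoe, Trem2, Ms4a7) from monocytes newly arrived from blood, which carry Ly6c2 and Ccr2. Interferon-γ and type I interferons act on macrophages through JAK kinases and raise guanylate-binding proteins, antigen presentation genes and the chemokines Cxcl9 and Cxcl10, whereas NF-κB signalling raises Cxcl1, Cxcl2, Tnf and its own inhibitor Nfkbia.

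The targeted gene did not tell the libraries apart. Atpif1 (chr4:132530555-132535450 on GRCm38.p6) had 4772 UMIs in the members of the wild-type library and 3347 in those of the knock-out library. These are 770 (748 to 792) and 797 (770 to 824) CPM, the UMIs of a gene summed over members per 1000000 UMIs of all genes in the same members. The log2 ratio of labelled KO over labelled WT, used throughout, was 0.05 (-0.01 to 0.11). Whether the 5′ reads fall in the deleted part of the gene is not given in the sources used here, so the libraries are written below as labelled WT and labelled KO.

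The members were deeply sampled. They held 6198851 UMIs in labelled WT and 4201732 in labelled KO, and the median cell had 8506 and 6724.5 UMIs from 2367 and 2078.5 genes. The median mitochondrial share was 2.20% and 2.15%. No member carried a productive T cell receptor contig, 0 of 625 and 0 of 552, which allows shares of up to 0.48% and 0.543% if 3 cells are taken as the limit of a count of 0 (the exact intervals reach 0.588% and 0.666%), whereas 32.4% and 31.6% of the T cells (at least 3 Cd3 UMIs and at most 1 Lyz2 UMI) had a contig marked as a cell. Only 1 member barcode occurred as a member in both libraries, among 29 kept barcodes found in both. Doublets were not removed from the members, and a doublet score would have removed 18 members (2.88%) in labelled WT and 7 (1.27%) in labelled KO.

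Members made up 14.3% (13.3 to 15.4) of kept cells in labelled WT and 17.2% (15.9 to 18.5) in labelled KO, a log2 ratio of 0.27 (0.10 to 0.43). Among the Lyz2 cells that passed the limits on dendritic cell, T cell, B cell and neutrophil genes, the shares were 40.4% and 45.9%. With neutrophil and B cells left out of the denominator they were 17.6% and 17.5%, a log2 ratio of -0.01 (-0.18 to 0.16). The difference in share of all kept cells was therefore not seen over that denominator. The limit on Cd3 transcripts removed 23 cells in labelled WT (655 to 632) and 48 in labelled KO (600 to 552), which lowers the labelled KO share more. The limit on Ear2 with Mgl2 also did so, from 687 to 666 and from 645 to 609 cells. The limit on Ccl8 plus Cbr2 acted the other way, from 851 to 687 cells in labelled WT and from 734 to 645 in labelled KO.

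C1q transcripts separated the members from many other Lyz2 cells without a clear gap. Among Lyz2 cells that met every criterion but the C1q minimum and were outside the Ccl8 Cbr2 and Ear2 Mgl2 gates, 505 of 1342 cells (37.6%) in labelled WT and 300 of 1062 (28.2%) in labelled KO had no C1q UMI. Cells just under the minimum, with 5 to 9 C1q UMIs, numbered 65 and 74. Cells just over it, with 10 to 14, numbered 66 and 63. Ms4a7 stood at 315 and 124 CPM just under the minimum and at 518 and 216 CPM just over it. Pf4 was not higher just over it, with 3214 and 1913 CPM under and 1730 and 1889 CPM over it. The median member held 57 C1q UMIs in labelled WT and 37 in labelled KO, and the highest 585 and 393. All 3 chains were detected in 93.0% and 91.1% of members, and C1qb gave 46.5% and 49.5% of the C1q UMIs.

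**Figure D1:**
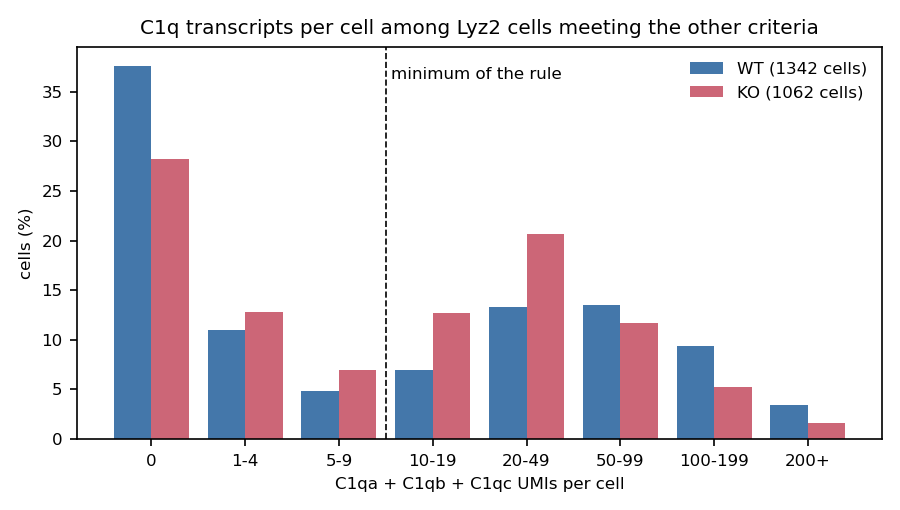
Share of cells (%, y axis) by the number of C1qa, C1qb and C1qc UMIs per cell (x axis), for the 1342 labelled WT and 1062 labelled KO Lyz2 cells that met the other criteria; the dashed line marks the minimum of 10 UMIs. Cells with 0 C1q UMIs are 37.6% and 28.2%, and cells with 200 or more are 3.43% and 1.60%.

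The label markers were then checked against neighbouring Lyz2 cells. C1q-low cells were divided into cells with at least 2 Ly6c2 UMIs, cells with at most 1 Ly6c2 UMI and at least 2 of Arg1 plus Mmp12, and the remainder, while resident-like cells with 5 or more UMIs of Ccl8 plus Cbr2 formed a gate of their own. C1qa, which chose the members, stood at 2223 CPM in labelled WT members and 1776 CPM in labelled KO members, against 11.2 and 6.62 CPM in T cells. Ms4a7, a membrane-spanning protein of macrophages, was at 868 and 516 CPM in members, 372 and 245 CPM in C1q-low Arg1 Mmp12 cells and 69.6 and 151 CPM in C1q-low Ly6c2 cells. Trem2, a lipid receptor, was at 517 and 424 CPM in members and 321 and 360 CPM in C1q-low Arg1 Mmp12 cells. Ms4a7 was thus higher in members than in both of these C1q-low gates, and Trem2 higher than in C1q-low Arg1 Mmp12 cells.

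Apoe was also higher in members than in C1q-low Arg1 Mmp12 cells, whereas Pf4 was lower. Apoe, a lipid carrier, was at 4432 and 3425 CPM in members and 3019 and 3050 CPM in C1q-low Arg1 Mmp12 cells. Pf4, a CXC chemokine of platelets and macrophages, was lower in members (2859 and 2145 CPM) than in C1q-low Arg1 Mmp12 cells (4763 and 3483 CPM). In Ccl8 Cbr2 cells, C1qa (3056 and 2631 CPM), Ms4a7 (1136 and 706 CPM) and Apoe (7238 and 4758 CPM) all exceeded the members. Of the label markers that the rule did not use, Ms4a7, Trem2 and Apoe were thus higher in members than in C1q-low Arg1 Mmp12 cells. For Trem2 and Apoe the levels were closer in labelled KO than in labelled WT. Pf4 was higher in C1q-low Arg1 Mmp12 cells. T cells held these 5 markers at no more than 44.9 CPM in either library.

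**Figure D2:**
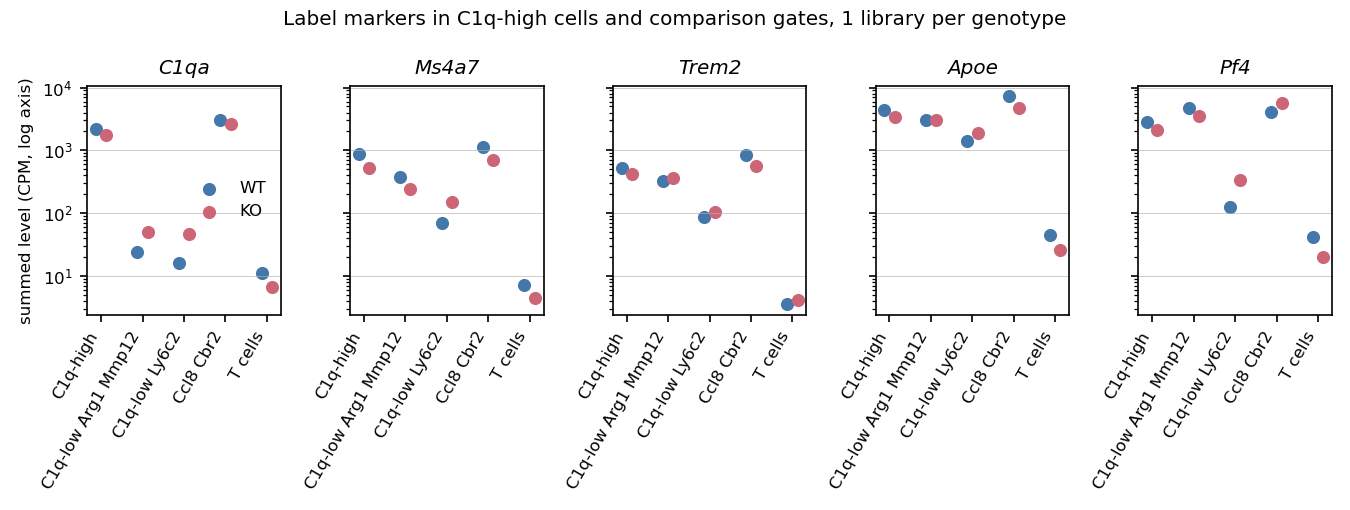
Summed level (CPM, log y axis) of 5 label markers in C1q-high cells, 3 other Lyz2 gates and T cells (x axis); each point is 1 library, labelled WT or KO. C1qa is at 2223 and 1776 CPM in members and at most 51.1 CPM in the C1q-low gates shown, whereas Pf4 is highest in the C1q-low Arg1 Mmp12 cells of labelled WT among the WT points, at 4763 CPM.

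Beyond the C1q genes that chose them, members differed from C1q-low cells by cycling and surface genes. The marker of cycling cells Mki67 stood at 48.1 and 38.1 CPM in members, at 4.30 and 3.41 CPM in C1q-low Arg1 Mmp12 cells and at 3.76 and 4.12 CPM in C1q-low Ly6c2 cells. Pclaf, Stmn1, Mcm3, Cdk1 and Ube2c, further genes of DNA replication and mitosis, were among the 15 genes with the largest ratio of members over both C1q-low gates in both libraries. A UMI of Mki67 or Top2a was found in 112 members (17.9%) in labelled WT and 65 (11.8%) in labelled KO. Labelled WT members were deeper than labelled KO members. After each cell was thinned to 2000 UMIs, Mki67 was found in 36 of 605 labelled WT and 16 of 527 labelled KO members. Cd72, a lectin-like receptor known from B cells, was at 103 and 125 CPM in members and between 10.3 and 28.9 CPM in the 2 C1q-low gates. On the lower side were Slpi, a protease inhibitor, and Inhba, an activin subunit. Slpi was at 56.1 CPM in labelled WT members and 433 CPM in labelled WT C1q-low Arg1 Mmp12 cells. Members were deeper than both C1q-low gates, whose median depths were 6643 and 4678.5 UMIs (Arg1 Mmp12) and 6038.5 and 5009 UMIs (Ly6c2), and the part of depth in the cycling gene difference was not tested.

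Gene differences between the libraries were counted by a rule of size, at least 1.5-fold in CPM, among genes with at least 20 UMIs over the members of both libraries. Of 10236 such genes, 697 (6.81%) were higher in labelled KO and 824 (8.05%) were lower, with a median log2 ratio of -0.01. These shares are the background for the list counts over all members given below. Subsets of members and other settings have backgrounds of their own. Genes responsive to interferon-γ were higher well beyond that background: 27 of 33 measured were higher and 1 was lower, with a median log2 ratio of 1.28. Of 40 genes responsive to type I interferon, 36 were higher and none lower, with a median of 1.08. Antigen presentation followed, with 15 of 22 class I genes and 9 of 14 class II genes higher, none lower, and a median of 0.70 for each list.

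**Figure D3:**
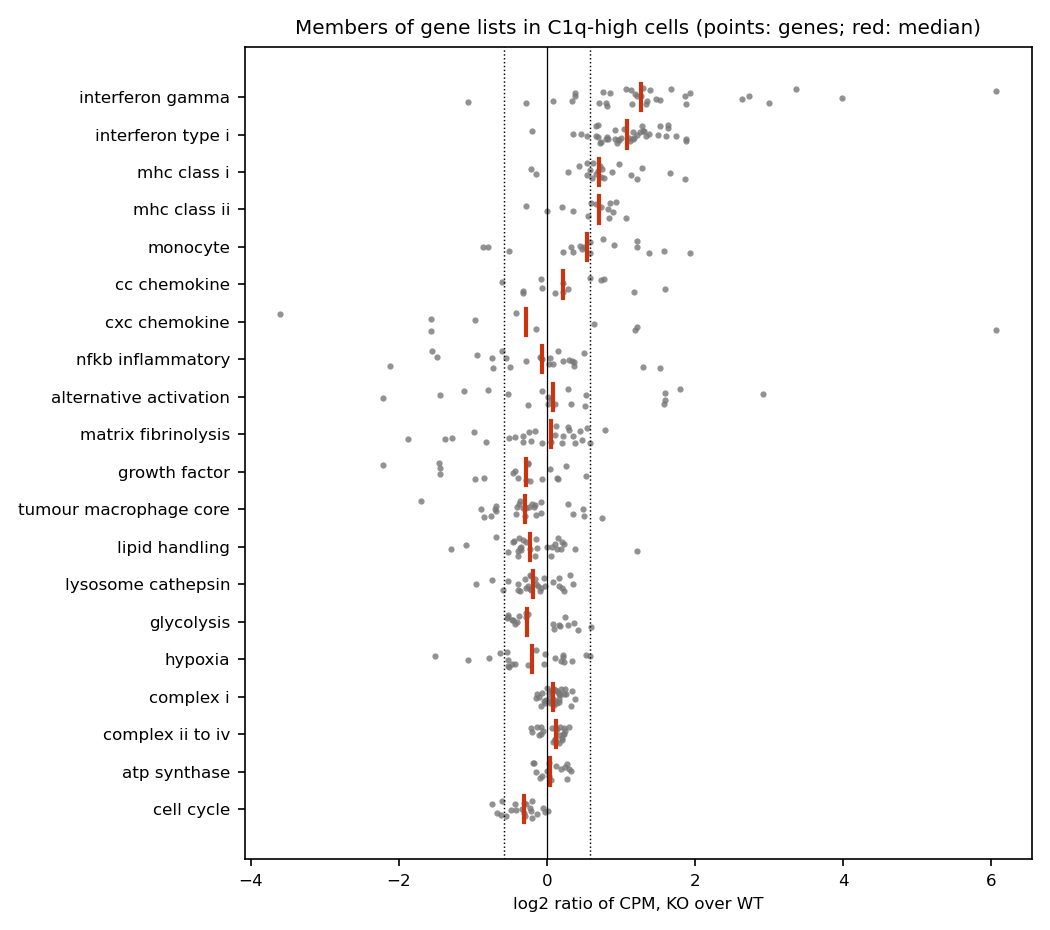
Log2 ratio of CPM, labelled KO over labelled WT (x axis), for the measured members of 20 gene lists (y axis) in the C1q-high cells; grey points are genes, red bars list medians and dotted lines the 1.5-fold limits. The interferon lists lie mostly to the right, with medians of 1.28 and 1.08, while respiratory chain lists stay within the limits, with medians between 0.04 and 0.12.

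Cxcl9, a chemokine that attracts T cells through CXCR3, had the largest ratio of the interferon-γ list. It had 15 UMIs in labelled WT members and 682 in labelled KO members, 2.42 (1.35 to 3.99) against 162 (150 to 175) CPM, a log2 ratio of 6.07 (5.34 to 6.91). The labelled WT UMIs came from 4 cells, and in labelled KO 61 cells held a UMI and 8 of them held 50% of the UMIs. After each cell was thinned to 2000 UMIs (605 and 527 members were deep enough, and 20 and 25 were left out), 0.165% and 7.97% of members had a Cxcl9 UMI, compared with 0.64% and 11.1% before thinning. T cells thinned likewise (416 and 452 cells, with 99 and 206 left out and unthinned median depths of 2983 and 2526.5 UMIs) gave 0.24% and 1.11%. Empty droplets, barcodes with 10 to 100 UMIs that hold RNA free of cells, had Cxcl9 at 5.22 and 159 CPM, so the level outside cells differed as well. Cxcl9 was therefore found in a minority of labelled KO members and in almost none of labelled WT.

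The labelled KO members with Cxcl9 differed from the others in what else was detected. After thinning, 42 labelled KO members had Cxcl9. The class II gene H2-Aa was found in 97.6% of them and in 68.0% of the other 485. Gbp2 was found in 42.9% against 6.60%, and Ly6a in 66.7% against 31.3%. Conversely, Ms4a7 was found in 14.3% against 39.0%, and Arg1, the arginine-degrading enzyme of many tumour macrophages, in 9.52% against 40.4%. These shares describe cells of 1 library.

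Other interferon-γ genes followed the same direction. Iigp1, an immunity-related GTPase, had 9 and 97 UMIs, a log2 ratio of 3.99 (3.01 to 5.16). Serpina3g, a protease inhibitor, had 12 and 84 UMIs, a log2 ratio of 3.37 (2.49 to 4.38). Gbp2 had 63 and 283 UMIs, a log2 ratio of 2.73 (2.33 to 3.15), and Gbp4 had 12 and 65 UMIs. Gbp family members share sequence, so the split of reads between them is uncertain. Cxcl10 rested on more UMIs, at 127 (119 to 137) and 290 (274 to 306) CPM, but after thinning 9.92% and 11.6% of members had a UMI, under the 14.7% and 12.8% of T cells, so the share is not read as a difference. Nos2, the inducible nitric oxide synthase, was the only gene of the list past the limit downwards, with 37 and 12 UMIs.

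Ly6a, encoding the surface antigen Sca-1, had 916 and 2380 UMIs. Its level was 148 (138 to 158) CPM in labelled WT and 566 (544 to 590) CPM in labelled KO, a log2 ratio of 1.94 (1.83 to 2.05), and thinned shares were 7.44% and 34.2% of members (12.0% and 48.4% unthinned). T cells, which express Ly6a themselves, gave 27.6% and 44.0%. Among type I genes the ratios were smaller than for Iigp1. Isg15, a ubiquitin-like modifier, was at 203 (192 to 214) and 575 (552 to 598) CPM, a log2 ratio of 1.504 (1.40 to 1.60). Rsad2, encoding the antiviral enzyme viperin, was at 28.6 and 104 CPM, a log2 ratio of 1.87 (1.62 to 2.13). The transcription factor gene Irf7 (86.0 and 172 CPM) was also past the limit, as was the abundant membrane protein gene Ifitm3 at 1396 and 2637 CPM. Isg15 was higher in labelled KO in empty droplets too, at 207 and 397 CPM.

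Promoters of interferon genes are shown because most of this group was higher; the genes were chosen after their values were seen. The 250 bases before the transcription start are from the RefSeq promoter table on GRCm38.p6, 5′ to 3′ on the strand of the gene, with matches to the interferon-stimulated response element letters, GAAA, any pair of bases and GAAA on either strand, in capitals. Gbp2 lies at chr3:142620413-142620662, plus strand, Rsad2 at chr12:26456453-26456702, minus strand, Isg15 at chr4:156200819-156201068, minus strand, and Cxcl10 at chr5:92348890-92349139, minus strand.
Isg15: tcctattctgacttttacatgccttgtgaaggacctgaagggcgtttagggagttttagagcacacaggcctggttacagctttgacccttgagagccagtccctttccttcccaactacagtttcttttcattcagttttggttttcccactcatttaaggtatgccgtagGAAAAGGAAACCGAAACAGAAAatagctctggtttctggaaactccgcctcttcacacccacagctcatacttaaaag
Gbp2: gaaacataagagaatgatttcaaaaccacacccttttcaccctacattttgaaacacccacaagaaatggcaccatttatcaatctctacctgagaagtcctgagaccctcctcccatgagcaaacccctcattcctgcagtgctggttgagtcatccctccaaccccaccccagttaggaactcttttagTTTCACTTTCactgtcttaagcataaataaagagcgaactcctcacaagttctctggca
Rsad2: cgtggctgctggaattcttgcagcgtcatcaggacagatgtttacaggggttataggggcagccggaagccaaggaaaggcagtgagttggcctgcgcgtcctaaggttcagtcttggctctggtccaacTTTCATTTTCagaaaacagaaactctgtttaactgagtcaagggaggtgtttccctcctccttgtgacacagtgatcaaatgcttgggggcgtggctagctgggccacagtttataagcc
Cxcl10: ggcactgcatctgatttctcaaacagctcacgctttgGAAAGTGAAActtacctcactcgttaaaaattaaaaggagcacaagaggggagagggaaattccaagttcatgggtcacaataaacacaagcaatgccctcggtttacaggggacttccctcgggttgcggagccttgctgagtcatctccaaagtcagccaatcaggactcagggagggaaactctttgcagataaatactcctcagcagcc
Isg15 held 3 overlapping matches starting 78, 72 and 66 bases before the start, Gbp2 held 1 at 59 bases, Rsad2 1 at 120 bases and Cxcl10 1 at 213 bases. The shares that follow count matches in 300 bases, the 250 before the start and 50 after it. In the table, 3.49% of 27025 promoters held such a match. In the interferon-γ list 14 of the 26 matched promoters did (53.8%), and in the type I list 17 of the 29 (58.6%). Cxcl9 held no match in the 250 bases before the start. A match is a run of letters and not shown to be bound in these cells.

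Antigen presentation genes were higher at large counts. H2-Aa, an α chain of class II, had 12751 and 14374 UMIs, 2057 (2021 to 2093) and 3421 (3365 to 3477) CPM, a log2 ratio of 0.73 (0.70 to 0.77). Thinned shares were 52.7% and 70.4% of members (67.4% and 77.4% unthinned), against 14.7% and 14.8% of T cells. H2-Ab1 and H2-Eb1, the β chains, each had a log2 ratio of 0.83, and the class II regulator Ciita had 94 and 133 UMIs. In class I, H2-Q7 was at 23.1 and 84.0 CPM, a log2 ratio of 1.86 (1.58 to 2.16), although it shares sequence with other Q genes. The peptide transporter gene Tap1 was at 48.6 and 107 CPM, and B2m at 1524 and 2558 CPM. Of 25 measured co-signalling genes, which act on T cells, 3 were higher and 2 lower, with a median of 0.09, which is close to the background of all genes. Among those named, Cd40 was at 26.1 and 48.3 CPM, Cd274 (PD-L1) at 19.04 and 30.9 CPM and Pdcd1lg2 (PD-L2) at 1.29 and 9.76 CPM, whereas Tnfsf9 (4-1BB ligand) was at 83.9 and 40.2 CPM. Empty droplets held Cd274 at 55.7 and 51.3 CPM and Pdcd1lg2 at 17.6 and 17.4 CPM, above the members in both libraries.

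Inflammatory genes differed in both directions. Of 25 measured genes of the NF-κB list, 2 were higher and 7 lower, with a median log2 ratio of -0.07, and of 10 CXC chemokine and receptor genes 4 were higher and 4 lower. Cxcl1, a chemokine for neutrophils, had 2754 UMIs in labelled WT and 154 in labelled KO. Its level was 444 (428 to 461) and 36.7 (31.1 to 42.9) CPM, a log2 ratio of -3.60 (-3.84 to -3.36). A UMI was found in 121 labelled WT members and 32 labelled KO members, and after thinning in 13.2% and 3.80% (19.4% and 5.80% unthinned), against 0.721% and 0.221% of T cells. Empty droplets held Cxcl1 at 135 and 16.5 CPM, below the members in both libraries.

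Cxcl2 was far more abundant than Cxcl1 and lower in labelled KO by less. It stood at 4234 (4183 to 4286) and 1435 (1399 to 1472) CPM, a log2 ratio of -1.56 (-1.60 to -1.52). Empty droplets held more, 7013 CPM in labelled WT and 1081 CPM in labelled KO, and T cells with a Cxcl2 UMI after thinning were 29.3% and 5.09%, compared with 47.1% and 39.7% of members (65.0% and 49.5% unthinned). Cxcl2 was thus lower in labelled KO both in members and outside cells. With free RNA subtracted by 4 groups of genes foreign to macrophages, the Cxcl2 log2 ratio was -1.12. Those 4 groups together stood in members at 22.8% and 30.4% of their level in empty droplets. They did not give 1 estimate: T cell genes were at 3.42% and 2.36%, B cell genes at 26.4% and 28.4%, melanoma genes at 27.4% and 70.3% and haemoglobin genes at 0.779% and 79.7%. Melanoma genes gave 350 of the 425 CPM of the 4 groups in labelled WT members, and 244 of 322 CPM in labelled KO. Of these melanoma UMIs, 7 labelled WT members and 3 labelled KO members held 91.9% and 91.6%. The estimate from 4 groups thus rested largely on few cells. With T cell genes alone the Cxcl2 log2 ratio was -1.52.

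Tnf and Nfkbia were lower and Il1b was higher. Neutrophil markers were lower in the same members, 6 of 7 measured with a median log2 ratio of -2.60, and their part in these results was not tested. Tnf was at 233 (221 to 245) and 79.5 (71.2 to 88.5) CPM, with thinned shares of 25.1% and 14.4% (45.3% and 32.1% unthinned) against 12.98% and 8.19% of T cells. Nfkbia, the NF-κB inhibitor IκBα, was at 832 (809 to 855) and 298 (281 to 315) CPM, but its thinned shares, 50.4% and 31.9% (77.4% and 51.8% unthinned), were below those of T cells, 79.3% and 66.2%. Both were lower in labelled KO in empty droplets too, Tnf at 213 and 87.1 CPM and Nfkbia at 1308 and 458 CPM. Il1b, encoding interleukin-1β, went the opposite way, at 290 (276 to 303) and 831 (804 to 859) CPM, a log2 ratio of 1.52 (1.44 to 1.60). Empty droplets held Il1b at 1463 and 915 CPM, so its level outside cells was lower where members were higher. Subtraction of free RNA by 4 gene groups left no Il1b in labelled WT members, so that setting gave no ratio. Thinned Il1b shares were 21.7% and 46.9% of members (38.9% and 59.1% unthinned) and 11.8% and 6.19% of T cells. Il1a had 141 and 22 UMIs, a log2 ratio of -2.12 (-2.84 to -1.46).

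Within labelled WT, the inflammatory genes were found together. After thinning, Cxcl1 was detected in 27.4% of the 285 labelled WT members with Cxcl2 and in 0.625% of the 320 without it. Tnf was detected in 42.5% against 9.69%, and Il1b in 35.8% against 9.06%. In labelled KO, Cxcl1 was in 8.13% of the 209 members with Cxcl2 and in 0.943% of the 318 without, and Il1b in 55.5% against 41.2%. Il1b in labelled KO was thus common also in members without Cxcl2.

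The promoters of these genes are shown for the κB letters, GGG, any pair of bases and TTTCC on either strand, in capitals, over the same window and table; these genes too were chosen after their values were seen. Cxcl1 lies at chr5:90890995-90891244, plus strand, Cxcl2 at chr5:90903649-90903898, plus strand, and Nfkbia at chr12:55492648-55492897, minus strand.
Cxcl1: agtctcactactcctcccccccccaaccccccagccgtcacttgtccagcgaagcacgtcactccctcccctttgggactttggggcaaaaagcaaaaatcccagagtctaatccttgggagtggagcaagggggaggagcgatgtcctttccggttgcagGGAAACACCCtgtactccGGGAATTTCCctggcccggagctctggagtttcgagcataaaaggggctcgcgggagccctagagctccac
Cxcl2: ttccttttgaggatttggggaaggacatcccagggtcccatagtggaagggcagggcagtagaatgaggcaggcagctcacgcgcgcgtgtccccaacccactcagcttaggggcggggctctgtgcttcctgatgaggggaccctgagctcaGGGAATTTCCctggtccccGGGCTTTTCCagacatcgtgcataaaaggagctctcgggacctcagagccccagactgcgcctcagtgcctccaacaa
Nfkbia: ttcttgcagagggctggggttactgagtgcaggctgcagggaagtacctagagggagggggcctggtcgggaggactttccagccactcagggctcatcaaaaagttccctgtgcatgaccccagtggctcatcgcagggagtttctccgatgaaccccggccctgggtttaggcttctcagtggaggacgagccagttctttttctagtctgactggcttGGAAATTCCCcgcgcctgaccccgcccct
Cxcl1 held matches starting 89 and 71 bases before the start, Cxcl2 held matches at 97 and 78 bases, and Nfkbia held 1 at 29 bases. These are runs of letters, as above, and nothing was measured of binding. Over 300 bases, 50 of them after the start, such matches were found in 1.63% of all promoters. They were found in 5 of 22 of the NF-κB list (22.7%) and in 3 of 11 of the CXC list (27.3%). Tnf held none in the 250 bases before the start.

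CC chemokines stayed closer to parity. Ccl2, the main attractant of monocytes, was at 1917 and 2068 CPM, a log2 ratio of 0.11 (0.07 to 0.15), and Ccl7, which acts on the same receptor, was at 1563 and 1910 CPM. Of 14 measured CC genes, 4 were higher, among them Ccl12 (382 and 655 CPM) and Ccl24 (46.8 and 141 CPM). Ccl5 was past the limit with 164 and 250 UMIs, but 1 cell held 31.1% and 30.8% of them. Ccl3 was past it downwards at 367 and 241 CPM, with empty droplets at 812 and 235 CPM, and its ratio changed sign when free RNA was subtracted by 4 gene groups.

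Genes of the tumour macrophage programme leaned lower in labelled KO. Of 26 genes of a core list that includes the label markers, 1 was higher and 7 lower, with a median log2 ratio of -0.29. Ms4a7 (chr19:11321039-11336146) was at 868 (845 to 892) and 516 (494 to 538) CPM, a log2 ratio of -0.75 (-0.82 to -0.68), and thinned shares were 59.7% (55.6 to 63.6) and 37.0% (32.9 to 41.3) of members (79.0% and 51.6% unthinned). T cells gave 1.68% and 1.11%. Pf4 and Apoe had ratios of -0.41 and -0.37 and Trem2 -0.29, all short of the 1.5-fold limit. C1qa, C1qc and C1qb, which chose the cells, were lower by 0.32, 0.27 and 0.12 on the log2 scale, as a description.

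**Figure D4:**
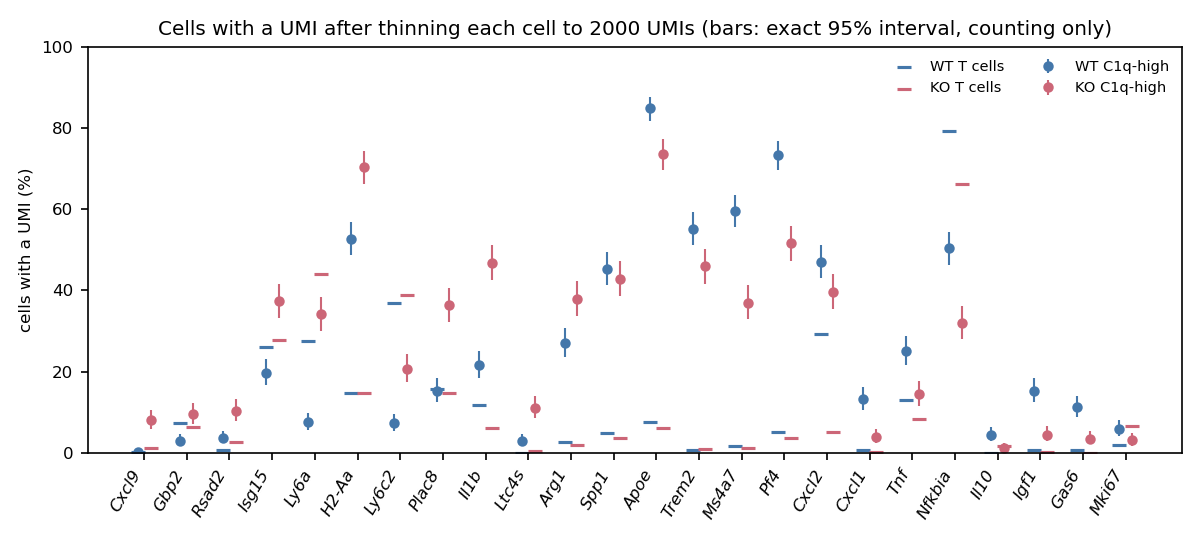
Cells with at least 1 UMI of a gene (%, y axis) after each cell was thinned to 2000 UMIs, for 24 genes (x axis); points with bars are the 605 labelled WT and 527 labelled KO members with exact 95% intervals for counting error, and dashes are T cells of the same library. Cxcl9 is at 0.165% and 7.97% of members, Il1b at 21.7% and 46.9%, and Ms4a7 at 59.7% and 37.0%.

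Lipid and lysosome genes were mostly near parity with a slight lean downwards. Of 29 lipid genes, 3 were lower and 1 higher, with a median of -0.23. Fabp4, a fatty acid carrier, was at 113 (104 to 121) and 45.7 (39.5 to 52.6) CPM. Of 28 lysosome genes, 3 were lower and none higher, with a median of -0.19. Over all genes 8.05% were lower and 6.81% higher, so the counts of both lists were near or under that background. Cd68, a lysosomal glycoprotein, was at 1077 and 644 CPM and the protease gene Ctsb at 5012 and 3318 CPM, whereas Ctss was at 1706 and 2171 CPM. The ferritin genes Fth1 (22516 and 17396 CPM) and Ftl1 (23837 and 16801 CPM), among the most abundant transcripts of the members, were lower by less than the limit.

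Growth factors and factors for clearing dead cells included several low genes. Of 19 measured growth factor genes, 6 were lower and none higher. Igf1, insulin-like growth factor 1, was at 139 (129 to 148) and 50.9 (44.3 to 58.2) CPM, and thinned shares were 15.2% and 4.36% (29.9% and 11.8% unthinned). Gas6, a ligand of the AXL and MERTK receptors, was at 70.3 (63.9 to 77.3) and 25.7 (21.1 to 31.03) CPM, while the receptor gene Axl was higher at 53.9 (48.3 to 59.98) and 116 (106 to 127) CPM. Mertk had 158 and 93 UMIs, a log2 ratio of -0.20. Gdf15 was at 80.0 and 29.3 CPM. Il10, an inhibitory cytokine, had 191 UMIs in 75 labelled WT cells and 28 UMIs in 17 labelled KO cells, a log2 ratio of -2.21 (-2.84 to -1.63), but after thinning only 4.46% and 1.14% of members had a UMI (12.0% and 3.08% unthinned), the second below the 1.55% of T cells.

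Genes of alternative activation split in both directions, 5 of 20 higher and 4 lower. Arg1 was close to parity as a sum, at 979 (955 to 1004) and 1051 (1021 to 1083) CPM, while the share of members with a UMI after thinning was 27.1% (23.6 to 30.8) and 38.0% (33.8 to 42.2), compared with 37.1% and 48.4% unthinned. Retnla had 557 and 1137 UMIs, but in only 10 and 21 cells, and 1 labelled KO cell held 58.8% of its UMIs there. Mgl2, a lectin of macrophages and dendritic cells whose level the selection limited together with Ear2, was at 29.8 and 89.5 CPM. Ltc4s, the leukotriene C4 synthase, was more widely spread, with 130 UMIs in 59 cells and 392 in 96 cells, a log2 ratio of 2.15 (1.86 to 2.45). Thinned Ltc4s shares were 2.98% and 11.01% (9.44% and 17.4% unthinned), while 0 of 416 and 0.442% of T cells had a UMI. In both libraries Arg1 was found with osteopontin, Spp1: 73.2% of labelled WT members with Arg1 had Spp1 against 34.9% of those without, and 63.5% against 30.3% in labelled KO.

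Of 27 matrix genes 5 were lower and 1 higher, and the number higher lay between 0 and 7 over 18 settings. It was 7 when free RNA was subtracted by 4 gene groups, where 1124 of all genes were higher, compared with 697 without subtraction. Mmp12, macrophage elastase, was at 308 (294 to 322) and 119 (109 to 130) CPM, but 5 cells held 50% of its UMIs in each library, and with each cell thinned the log2 ratio was -0.76 in place of -1.37. Spp1 was at 3057 and 2437 CPM.

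Respiratory chain genes were close to parity. None of 37 complex I genes, 25 genes of complexes II to IV and 16 genes of the ATP synthase list passed 1.5-fold, and their medians were 0.09, 0.12 and 0.04. Of 13 mitochondrially encoded genes, only mt-Atp8 passed, at 275 (262 to 289) and 113 (103 to 123) CPM, found in 518 and 270 cells. The gene overlaps mt-Atp6, which was at a log2 ratio of 0.04, and counts of overlapping genes are uncertain. Glycolysis genes had a median of -0.27, with Pfkp past the limit upwards at 53.4 and 80.9 CPM. Of 22 hypoxia genes 4 were lower, among them Ndrg1 at 115 and 66.4 CPM. That number was 1 after thinning and 10 when 3 ranges of C1q were given the same weights in both libraries.

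Monocyte genes were more often higher in labelled KO members. Of 18 genes, 7 were higher and 2 lower, with a median log2 ratio of 0.54. The largest ratio of this list was that of Ly6a, which is also on the interferon-γ list, so the lists overlap. Ly6c2 was at 117 (109 to 126) and 271 (255 to 287) CPM, and 51 labelled WT members (8.16%) against 121 labelled KO members (21.9%) held at least 2 UMIs. Plac8 was at 209 (198 to 221) and 545 (523 to 568) CPM, with thinned shares of 15.2% and 36.4% (23.7% and 47.1% unthinned) against 15.6% and 14.8% of T cells, so the labelled WT share is not above that of T cells. Ccr2 was at 326 and 489 CPM. Members with Ly6c2 also held Isg15 more often, 63.6% against 16.2% in labelled WT and 66.1% against 29.9% in labelled KO. Without the members that held 2 or more Ly6c2 UMIs, 574 labelled WT and 431 labelled KO members were left. Their median log2 ratio was 1.11 for the interferon-γ list and 0.96 for the type I list. The lists were higher also among members under 2 Ly6c2 UMIs. The part of monocyte-like members in the interferon difference was not tested.

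C1q level itself ordered several genes within the members. Members were divided into tertiles by C1q CPM, with bounds of 4922 and 9247 CPM over both libraries, which gave 188, 202 and 235 labelled WT cells and 204, 190 and 158 labelled KO cells from low to high. Ms4a7 was at 444 CPM in the low tertile and 1410 CPM in the high tertile of labelled WT, and at 227 and 838 CPM in labelled KO. Fcrls, an Fc receptor-like scavenger, was at 42.0 and 210 CPM in labelled WT and 36.9 and 167 CPM in labelled KO. Mki67 was at 14.5 and 90.9 CPM in labelled WT and 10.5 and 57.7 CPM in labelled KO. Apoe was at 2504 and 6686 CPM and at 2224 and 5144 CPM. These genes were higher where C1q was higher in both libraries.

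Inflammatory transcripts ran the other way. Cxcl2 was at 6617 CPM in the low and 1792 CPM in the high tertile of labelled WT, and at 2306 and 542 CPM in labelled KO. Nfkbia was at 1198 and 407 CPM and at 434 and 149 CPM. Spp1 was at 6214 and 1078 CPM in labelled WT and 3663 and 1666 CPM in labelled KO. The melanoma gene Dct was almost confined to the low tertile, at 587 and 16.0 CPM in labelled WT and 361 and 12.4 CPM in labelled KO. It rested on few cells, as 1 member held 39.7% of its UMIs in labelled WT and 1 held 54.9% in labelled KO. The interferon difference was present in each tertile: the median log2 ratio of the interferon-γ list was 1.16, 1.23 and 1.25 from low to high, and of the type I list 0.85, 1.19 and 1.00. Some other lists differed in sign between tertiles. The hypoxia list had medians of -0.39, -0.35 and 0.28 from low to high. Of its genes, 10 of 21, 8 of 20 and 1 of 19 were lower, and 1, 0 and 6 were higher. The matrix list had medians of -0.07, -0.08 and 0.36. The cell cycle list had -0.09, 0.39 and -0.65, with 9 of 21 genes higher in the middle and 12 of 21 lower in the high tertile. Medians over all genes were 0.04, 0.01 and -0.05. Of 8408, 8189 and 8411 genes measured from low to high, 943, 846 and 699 were higher. Lower were 821, 769 and 1009, so the background also shifted between tertiles. These differences between tertiles were not tested.

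**Figure D5:**
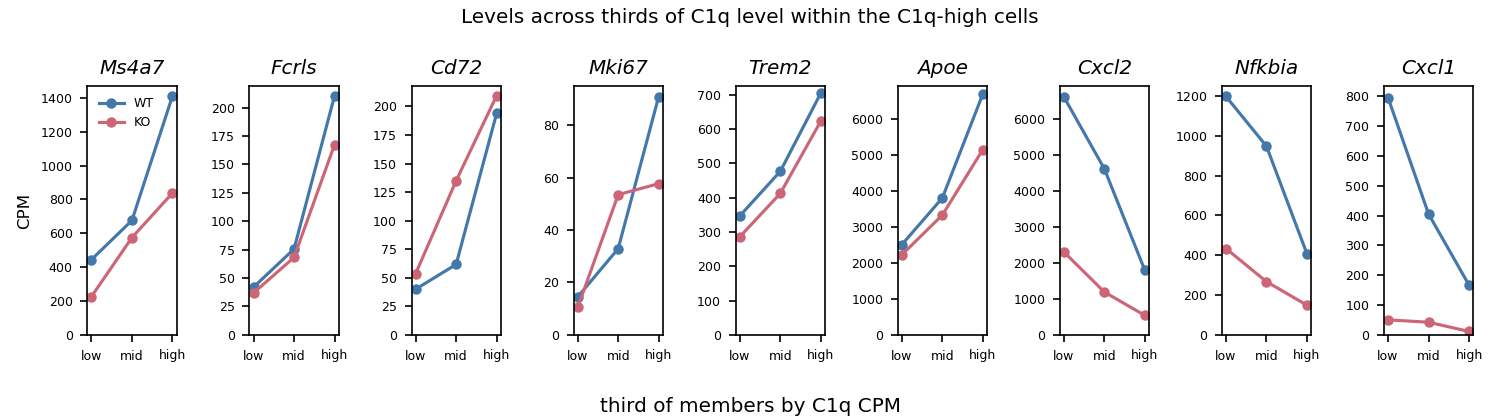
Level (CPM, y axis, a scale for each gene) of 9 genes in the low, middle and high tertile of C1q CPM (x axis) of the members; each line is 1 library. Ms4a7 runs from 444 to 1410 CPM in labelled WT and from 227 to 838 CPM in labelled KO, while Cxcl2 runs from 6617 to 1792 CPM and from 2306 to 542 CPM.

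The genes that varied most between members, by variance over mean after thinning in both libraries, were led by Fth1, Spp1, Retnla, Cd74 and Cxcl2, and also included Pf4, Ccl7, Arg1, Hmox1 and Apoe. Retnla stands among them because of few cells, as given above.

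Further genes were among the 12 highest and the 12 lowest of the members by interval bound. On the higher side, Ifi206, an interferon-inducible gene, was at 5.65 and 24.04 CPM, Fam26f at 10.5 and 36.7 CPM, and Bcl2a1a, a survival gene with near-identical copies whose reads may be split, at 31.1 and 104 CPM. On the lower side, Phlda1 was at 471 and 172 CPM and Nt5dc2 at 87.6 and 35.7 CPM. Igfbp4, which binds insulin-like growth factors, was at 84.7 and 34.5 CPM, and Pmp22 at 94.7 and 42.4 CPM.

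Other Lyz2 cells showed the interferon difference too. The median log2 ratio of the interferon-γ list was 1.28 in members, 1.11 in C1q-low Ly6c2 cells, 0.63 in C1q-low Arg1 Mmp12 cells and 1.19 in Ccl8 Cbr2 cells, and 0.02 in T cells. For the type I list these were 1.08, 0.81, 1.18, 1.31 and 0.26. Cxcl9 was at 35.7 and 205 CPM in C1q-low Ly6c2 cells, and Cxcl1 at 1428 and 167 CPM in C1q-low Arg1 Mmp12 cells, so neither difference was particular to the members. Il1b differed in direction: in C1q-low Arg1 Mmp12 cells it was at 1473 and 1094 CPM, a log2 ratio of -0.43 (-0.54 to -0.32), compared with 1.52 in members. The difference between gates was not tested.

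Markers of other cell types were looked for in the members. Summed neutrophil markers stood at 169 and 48.1 CPM in members and at 5869 and 951 CPM in empty droplets, with S100a8 and S100a9 limited by the selection. The 12 T cell markers summed to 78.9 and 75.2 CPM, most of it Il7r (68.6 and 54.7 CPM), and the NK cell markers to 8.23 and 4.52 CPM, with 5 and 7 of 8 markers at 0. Fibroblast markers summed to 1.94 and 1.67 CPM, and all 6 mast cell and basophil markers were at 0. Conventional dendritic cell markers summed to 236 and 471 CPM (cDC1) and 52.4 and 50.9 CPM (cDC2). Of 4 measured cDC1 markers, Naaa was higher with 530 and 1191 UMIs, and 1 was lower. Plasmacytoid dendritic cell markers summed to 434 and 659 CPM, most of it Bst2, also on the type I list. B cell markers summed to 71.0 and 61.4 CPM, endothelial to 13.1 and 19.3 CPM and erythroid to 1.45 and 5.95 CPM. The 6 markers of migratory dendritic cells summed to 8.23 and 36.4 CPM, with empty droplets at 266 and 303 CPM. Ccr7 was at 3.39 and 12.9 CPM, and 1 of the 8 labelled KO cells with Ccr7 held 63.0% of its 54 UMIs there. The part of dendritic cells of any of these kinds in the Cxcl9 difference was not tested. Melanoma markers summed to 679 and 398 CPM. For the pigment genes Pmel, Mlana, Dct, Tyrp1 and Tyr, 7 labelled WT members and 3 labelled KO members with at least 5 UMIs, of median depth 33275 and 33038 UMIs, held 91.9% and 91.6% of the UMIs.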

How the data were processed

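Single-cell RNA libraries and T cell receptor libraries from pooled tumours, 1 of each per genotype, were analysed. The authors deposited raw UMI counts per gene and barcode, 31053 genes and 737280 barcodes in each library, and the file headers name Cell Ranger 3.1.0 as the source; mm10 is named in the submitters' processing notes. Totals were 35152477 and 24385843 UMIs. Cells were taken from barcodes with at least 1000 UMIs, and 4370 and 3211 were kept. Members were found by the transcript limits given above, without clustering, and members and gene lists were chosen with earlier results of these data known. Doublets, scored with scanpy 1.11.5, were removed only as an alternative. Counts were summed over members per library, with exact Poisson intervals for levels, exact conditional binomial intervals for ratios and Clopper-Pearson intervals for shares (Python 3.11.15, numpy 2.4.6, scipy 1.17.1). The difference rule was 1.5-fold with at least 20 UMIs. No p-value was computed, as each group is 1 library. The scripts were tested on simulated data.

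Genes were named by rule: selection and label markers, Atpif1, the 12 highest and 12 lowest genes by interval bound, up to 6 genes of each list by interval bound and 3 by UMIs, and the 15 genes most above C1q-low cells or most variable. Irf7, Nos2, Mertk, Slpi and Inhba lie outside that rule and were chosen after the values were seen. Alternatives changed the cell filters, doublets, selection limits, UMI minimum, size factors, thinning, free RNA and subsets of members. Promoters came from the RefSeq promoter table on GRCm38.p6. Not every gene that the rule names is described, and the values of some are not reported here.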

Additional observations from a re-analysis of the deposited data

Results flagged for a closer look

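Among the 290 genes named by rule, 4 had intervals beyond 1.5-fold in opposite directions in C1q-high cells and in another Lyz2 gate. The gates compared were C1q-low Ly6c2, C1q-low Arg1 Mmp12, Ccl8 Cbr2 and Ear2 Mgl2, and the difference between gates was not tested. In C1q-low Ly6c2 cells, 14.9% of 6410 measured genes were higher in labelled KO and 13.8% lower, against 6.81% and 8.05% in C1q-high cells. Of 22 tumour macrophage core genes measured in that gate, 11 were higher and 3 lower, with a median of 0.54. The C5a receptor gene C5ar1 had a log2 ratio of labelled KO over labelled WT of 1.11 (0.69 to 1.53) in C1q-low Ly6c2 cells, with 82 and 121 UMIs, and of -0.77 in C1q-high cells. Ms4a7 had 1.12 (0.68 to 1.56) in C1q-low Ly6c2 cells, with 74 and 110 UMIs, and -0.75 in C1q-high cells. Nt5dc2 had 1.52 (0.83 to 2.25) in C1q-low Ly6c2 cells, with 27 and 53 UMIs, and -1.29 in C1q-high cells. Rgs1, a regulator of G protein signalling, had -1.25 (-1.57 to -0.94) in the cells with Ear2 and Mgl2, with 213 and 141 UMIs, and 0.74 in C1q-high cells.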

How the results depend on the processing

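No paired analysis was possible because each genotype is 1 library, and genotype and library cannot be told apart. Over 18 settings the median log2 ratio was between 1.11 and 1.31 for the interferon-γ list and between 0.95 and 1.11 for the type I list; Cxcl9 lay between 5.63 and 6.69, Cxcl1 between -4.26 and -3.20, and Ms4a7 between -0.91 and -0.60. Il1b lay between 1.23 and 1.74 over 17 settings, with no ratio when free RNA was subtracted by 4 gene groups. With free RNA subtracted by 4 gene groups, 1124 genes were higher and 1572 lower in labelled KO. That subtraction rested largely on melanoma UMIs of few members, as given above. Under it, 3 of the named genes at least 1.5-fold apart changed sign, to log2 ratios of 0.034 for Ccl3, 0.070 for Cxcl3 and 1.22 for Nlrp3. With a minimum of 50 UMIs, 491 genes were lower, as fewer genes were measured. With at least 20 C1q UMIs per cell, the log2 ratio of the member share was 0.096. Among genes at least 1.5-fold apart, thinning changed the sign for Adm (0.46), Klrd1 (0.37) and Pmel (0.039), and leaving out members with Mki67 or Top2a changed it for Klrd1 (0.28); the cause was not tested. Genes under 1.5-fold also changed sign, among them Dct, Mlana, Irf8 and Csf3r. Leaving out members with Ly6c2 or melanoma UMIs and the subtraction by T cell genes were chosen after seeing the data. Low counts limit Cxcl9 in labelled WT, Nos2 and Pdcd1lg2.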
